A study of Arabidopsis thaliana with 8 samples.

Results

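The comparison set whole Arabidopsis thaliana seedlings of the irx3-2 mutant against seedlings of the Col-0 wild type, both 5 days old and grown on MS (Murashige and Skoog) medium without lincomycin. It was made of 4 of the 8 libraries of the series, irx3-2 replicates 1 and 2 and Col-0 replicates 2 and 3, and of the 19522 genes, of 36917 loci in the deposited table, that reached at least 10 normalized counts in at least 2 of these 4 libraries. irx3-2 is an allele of IRX3, the gene of the cellulose synthase subunit CESA7, and the labels do not give its lesion. All seedlings grew under continuous white light of 100 µmol photons per square metre per second at 22 °C, on agar plates with 1% sucrose. The other 4 libraries were irx3-2 and Col-0 on MS medium with 50 µg/ml lincomycin, an inhibitor of protein synthesis in plastids. They entered to estimate the spread and for the same comparison on lincomycin, set side by side. They also entered a test of whether the difference between the genotypes differs between the media. The series title links secondary wall defects to the effects of lincomycin, and the comparison on MS gives the difference between the genotypes without the antibiotic. Whether libraries of one group stem from different batches of plants is not stated, and the p-values then reflect only how far the sequenced samples vary, which may be technical.

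CESA7 works together with CESA4 and CESA8 in the cellulose synthase complexes that build the secondary wall of xylem vessels and fibres, and irregular xylem (irx) mutants were named for vessels that collapse when this wall is weak. Young seedlings first live on seed reserves: storage proteins are broken down, and the fatty acids of oil bodies pass through peroxisomal beta-oxidation and the glyoxylate cycle, whose own enzymes are isocitrate lyase and malate synthase, to become sugar. Plants of the cabbage family also store glucosinolates, sulfur compounds that myrosinases, a kind of beta-glucosidase, split into defence products when tissue is damaged.

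On MS medium irx3-2 and Col-0 seedlings differed at few genes. Of the 19522 genes 32 were higher and 13 lower in irx3-2 at an adjusted p under 0.05 (limma with Benjamini-Hochberg adjustment), which is 0.164% and 0.0666% of all genes tested and 0.231% together. Of these 45, 28 were at least 2-fold higher and 7 at least 2-fold lower. The rises included seed storage and oil body genes, ICL and MLS of the glyoxylate cycle, CESA7 itself and the genes of 4 beta-glucosidases. Among the falls were CYP79F1 and MAM1 of glucosinolate synthesis and 3 mitochondrion-encoded RNAs. At an unadjusted p under 0.05, 1268 genes (6.50%) were higher and 1379 (7.06%) lower. The irx3-2 values lay wholly above the Col-0 values for 3767 genes (19.3%) and wholly below for 3616 (18.5%), which is the background for each statement below that groups do not overlap. The groups did not overlap for any of the 45. Of the tested genes 154 passed the filter on counts through both irx3-2 libraries alone. Of these 5 were called (SESA1, NAC036, LCR67, LBD40 and BGLU4). Another 140 passed it through both Col-0 libraries alone, 1 of them called (SADHU3-2). Such genes had to differ to be tested. The median log2 difference over all tested genes was −0.01. All differences are irx3-2 minus Col-0 on the scale of log2(normalized count + 1), which understates the change of genes with few counts.

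**Figure D1:**
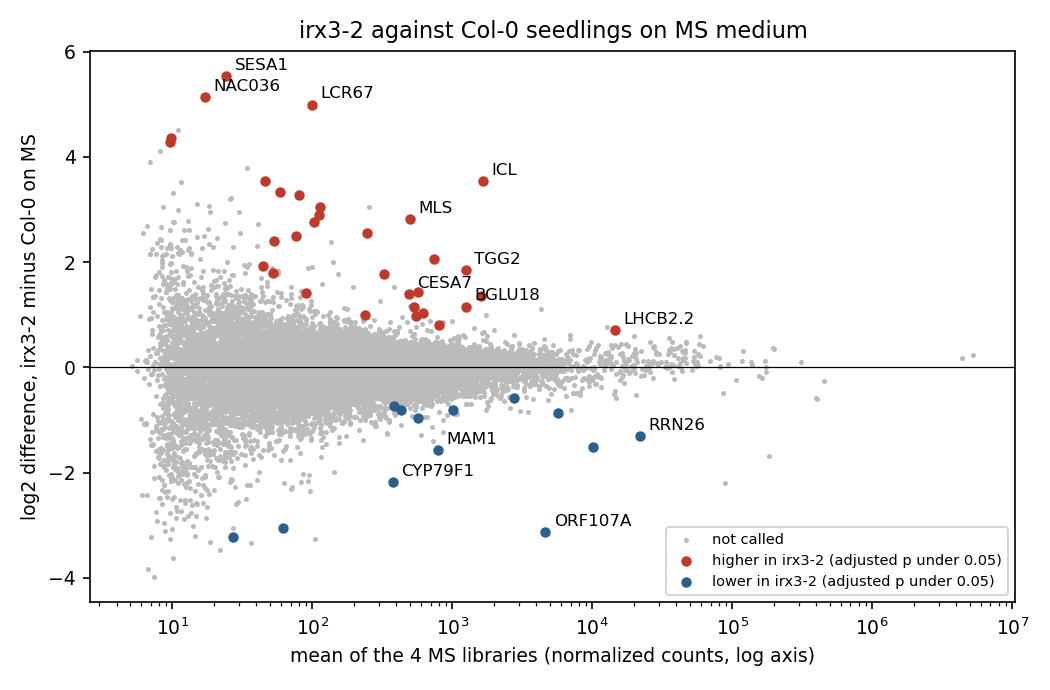
Each point is 1 of the 19522 tested genes, with the mean normalized count of the 4 MS libraries on a log x axis and the log2 difference, irx3-2 minus Col-0, on the y axis. The 32 genes that rose (red) reach 5.54 for SESA1, the 13 that fell (blue) reach −3.22, and most genes lie close to 0.

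The libraries were alike in depth, with 19488440 and 15032240 counted reads in irx3-2 and 15990205 and 18467091 in Col-0. Plastid genes took 58.1% and 55.2% of the reads in irx3-2 and 54.1% and 55.0% in Col-0 (56.6% ± 2.02 and 54.6% ± 0.643, SD, n = 2 each; two-sided exact permutation p = 0.333, the smallest that 2 against 2 allows). Without ribosomal RNA genes the plastid shares were 58.2% and 55.3% in irx3-2 and 54.2% and 56.6% in Col-0, and the groups overlapped. Across the tested genes the replicates correlated with r = 0.951 in irx3-2 and 0.960 in Col-0, which is a description over genes. The lincomycin pairs were closer, with r = 0.981 in irx3-2 and 0.985 in Col-0. The SD of the log2 difference between replicates was 0.710 in irx3-2 and 0.635 in Col-0 on MS. On lincomycin it was 0.464 and 0.400. The test pools these spreads, so its standard errors and p-values on MS may be too small. The nuclear 18S ribosomal RNA locus AT3G41768 differed widely within both groups, with 33855 and 503 normalized counts in irx3-2 and 250 and 701924 in Col-0. Defining markers of seedling tissues were present: 13 of 14 root, all 4 phloem and all 7 stomatal lineage and trichome markers passed the filter on counts. Root markers summed to 598 and 959 normalized counts in irx3-2 and 1072 and 773 in Col-0, and none of the 13 passed the test. Their median difference was −0.67 with all libraries, −1.51 without irx3-2 replicate 2 and −0.13 without irx3-2 replicate 1. In such bulk samples, fewer cells of a type and less RNA per cell cannot be told apart, and the part of root material in the results was not tested.

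CESA7 (AT5G17420), the gene mutated in irx3-2, lies on the minus strand of chromosome 5 between 5736630 and 5741500 (TAIR10.1). It had 712 and 711 normalized counts in irx3-2, against 265 and 278 in Col-0. Both mutant libraries stood above both wild-type libraries by more than the spread within either pair. The transcript was 2.62-fold higher in irx3-2 (log2 1.39 ± 0.16 SE, adjusted p = 0.00676, limma), and it passed the test in each of the 8 fits without 1 library. Since the lesion is not given and counts are summed over the whole gene, the labelled genotypes cannot be checked from this level.

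The partners of CESA7 in the secondary wall were not called. Of 7 genes of the secondary wall cellulose synthases and their partners CESA7 rose and none fell. The list median was −0.43, or −0.39 without irx3-2 replicate 2 and −0.10 without irx3-2 replicate 1. CESA4, the second subunit of the complex, had 275 and 350 normalized counts in irx3-2, against 401 and 323 in Col-0 (log2 −0.21, adjusted p = 0.624). CESA8, the third subunit, had 114 and 179 in irx3-2, against 188 and 226 in Col-0 (−0.53, adjusted p = 0.356). The CESA4 groups overlapped, while the CESA8 values of irx3-2 lay below those of Col-0. None of 14 xylan synthesis genes (median −0.19) and none of the 16 tested of 21 xylem regulators and effectors (median −0.03) passed the test. Of these 16 xylem genes 8 were above 0 and 8 below, and of those whose groups did not overlap 2 were higher and 5 lower. Among those below 0, the xylem proteases XCP1 and XCP2, which act as vessel cells die, were at −0.52 and −0.47 with adjusted p = 0.192 and 0.225.

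Other wall lists were at or near the median of all genes, with no member called: primary wall cellulose (10 genes, 0.05), wall receptor kinases (6 genes, 0.02), expansins and xyloglucan endotransglucosylases (32 genes, 0.10) and phenylpropanoid and lignin enzymes (18 genes, −0.03). Outside the lists, 5 genes of wall enzymes or their inhibitors passed the test. GH9B15 (AT4G23560), of the endoglucanase family GH9, had 492 and 357 normalized counts in irx3-2, against 68.9 and 72.7 in Col-0, a 5.85-fold rise (log2 2.55 ± 0.27, adjusted p = 0.00461). It is covered to 9.15% by another gene. The pectin methylesterase inhibitor gene ATPMEI12 had 97.8 and 83.2 in irx3-2, against 18.4 and 14.5 in Col-0 (2.39 ± 0.34, adjusted p = 0.0185). For both genes either mutant library stood above either wild-type library. The pectate lyase gene AT1G67750 rose by 0.99 and the peroxidase gene PRXCB by 0.80, while the beta-xylosidase gene XYL4, covered to 39.1% by another gene, fell by 0.81. AT1G67750 and PRXCB were named after their values were seen.

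Seed reserve genes stood higher in irx3-2. Of 15 listed genes of seed storage, oil bodies and maturation 12 passed the filter on counts, and 4 of the 12 rose (SESA1, SESA5, OLEO2 and PER1) and none fell. The median of the 12 was 2.56, against −0.01 over all tested genes, and 11 of the 12 had groups that did not overlap, all higher in irx3-2. This list, like all the lists used here, was chosen with earlier results of these data known, and SESA1 and SESA4 passed the filter through irx3-2 alone. The counts and the median are thus a description, and the median is the same with SESA1 at its lower bound. The 3 members below the filter were SESA3, OLEO4 and EM1, and EM1 was at 0 in all 4 libraries. Summed over the listed genes, irx3-2 had 1150 and 1649 normalized counts, against 251 and 221 in Col-0. Without irx3-2 replicate 2, 0 of the 12 passed the test and the median was 2.29.

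The bases upstream of SESA1, PER1 and ICL are shown because these genes rose together and because seed maturation genes are known for the RY element (CATGCA), bound by B3-domain regulators such as ABI3, and for ACGT-core elements (ACGTG), bound by bZIP factors such as ABI5. The windows are the 250 bases before the gene start in RefSeq, build TAIR10.1, read 5′ to 3′ on the gene's strand, at chr4:13607079-13607328 (plus) for SESA1, chr1:17780179-17780428 (plus) for PER1 and chr3:7656054-7656303 (minus) for ICL. Capitals mark either motif on either strand. The window of MLS, which rose with ICL, holds 0 matches of either motif and is not printed.
SESA1: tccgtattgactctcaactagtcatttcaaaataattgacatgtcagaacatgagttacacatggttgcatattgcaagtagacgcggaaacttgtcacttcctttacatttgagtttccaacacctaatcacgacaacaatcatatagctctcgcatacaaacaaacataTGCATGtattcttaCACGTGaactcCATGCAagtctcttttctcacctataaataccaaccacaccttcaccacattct
PER1: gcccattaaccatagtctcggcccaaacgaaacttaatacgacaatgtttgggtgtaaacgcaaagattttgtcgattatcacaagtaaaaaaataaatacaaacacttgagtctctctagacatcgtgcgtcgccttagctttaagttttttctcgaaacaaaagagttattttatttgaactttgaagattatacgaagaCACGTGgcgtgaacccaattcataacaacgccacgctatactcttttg
ICL: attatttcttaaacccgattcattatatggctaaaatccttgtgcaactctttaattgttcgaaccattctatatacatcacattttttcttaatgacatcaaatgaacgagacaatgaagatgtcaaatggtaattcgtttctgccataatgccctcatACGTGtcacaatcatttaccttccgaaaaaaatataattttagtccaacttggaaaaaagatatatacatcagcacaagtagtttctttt
CATGCA stands in the windows of 11 of the 32 genes that rose (34.4%), of 8 of the 12 tested seed genes (66.7%), of 2 of the 8 genes that fell and have a window (25.0%) and of 1409 of 18626 tested protein-coding genes (7.56%). ACGTG stands in 15 of the 32 (46.9%), 8 of the 12 (66.7%), 3 of the 8 (37.5%) and 4408 of the 18626 (23.7%). The 4 called seed genes are in both sets. A CACGTG, as in SESA1 and PER1, holds ACGTG on both strands. A match describes these letters and is not evidence of binding, and the set was chosen for its rise.

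SESA1 (AT4G27140), a 2S albumin, the small storage protein of seeds, had 31.7 and 65.5 normalized counts in irx3-2, against 0 and 0 in Col-0. With 3 reads over the group as its floor, it was at least 21.7-fold higher in irx3-2 (adjusted p = 0.0185). SESA5, another 2S albumin, had 68.8 and 99.1 in irx3-2, against 3.06 and 11.6 in Col-0 (log2 3.54, adjusted p = 0.0419). Neither Col-0 library on MS held more than 11.6 normalized counts of either albumin gene. OLEO2 (AT5G40420), an oleosin that coats oil bodies, had 185 and 173 in irx3-2, against 18.4 and 34.9 in Col-0 (2.77 ± 0.39, adjusted p = 0.0185). PER1 (AT1G48130), a peroxiredoxin of seeds, had 112 and 181 in irx3-2, against 21.4 and 8.73 in Col-0 (3.27 ± 0.51, adjusted p = 0.0325). The mutant pairs of both genes lay well above the wild-type pairs, and the PER1 values spread more within each pair. The 12S cruciferin genes CRA1 (3.05, adjusted p = 0.0557) and CRU3 (2.38, adjusted p = 0.0613) and the oleosin gene OLEO1 (2.73, adjusted p = 0.103) missed the threshold. ABI3, a regulator of seed maturation, had 44.1 and 17.7 in irx3-2, against 9.19 and 11.6 in Col-0 (1.35, adjusted p = 0.303). CRU2 was the member whose groups overlapped (0.34, adjusted p = 0.832).

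Outside that list, LEA18, a late embryogenesis abundant protein, had 145 and 115 normalized counts in irx3-2, against 18.4 and 26.2 in Col-0 (2.50 ± 0.40, adjusted p = 0.0336). LDAP2, a lipid droplet-associated protein covered to 7.14% by another gene, had 101 and 311 in irx3-2, against 15.3 and 27.6 in Col-0 (3.04 ± 0.43, adjusted p = 0.0187). The mutant libraries of LDAP2 differed widely from each other, and the lower of them was still above both wild-type libraries.

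The genes of both enzymes that are particular to the glyoxylate cycle rose. ICL (AT3G21720), the isocitrate lyase gene, had 2499 and 3564 normalized counts in irx3-2, against 176 and 372 in Col-0. It was 11.6-fold higher (log2 3.54 ± 0.27, adjusted p = 0.000519). MLS (AT5G03860), the malate synthase gene, had 563 and 1182 in irx3-2, against 84.3 and 157 in Col-0, a 7.04-fold rise (2.81 ± 0.33, adjusted p = 0.00790). Replicate 2 was the higher mutant library for both genes, and the lower mutant library exceeded the higher wild-type library several times over. The RNAs of the enzymes that this route shares with other pathways moved less. In a list of 7 glyoxylate cycle and gluconeogenesis genes, drawn up after values had been seen, ICL and MLS rose, none fell and the median was 0.41. PCK1, the phosphoenolpyruvate carboxykinase of gluconeogenesis, had 3628 and 3803 in irx3-2, against 2908 and 3049 in Col-0 (0.32, adjusted p = 0.219). The peroxisomal citrate synthase genes CSY2 and CSY3 were at 0.41 and 0.49 (adjusted p = 0.227 and 0.188). Of 11 genes of peroxisomal beta-oxidation and oil breakdown, also listed after values had been seen, none passed the test (median 0.07).

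**Figure D2:**
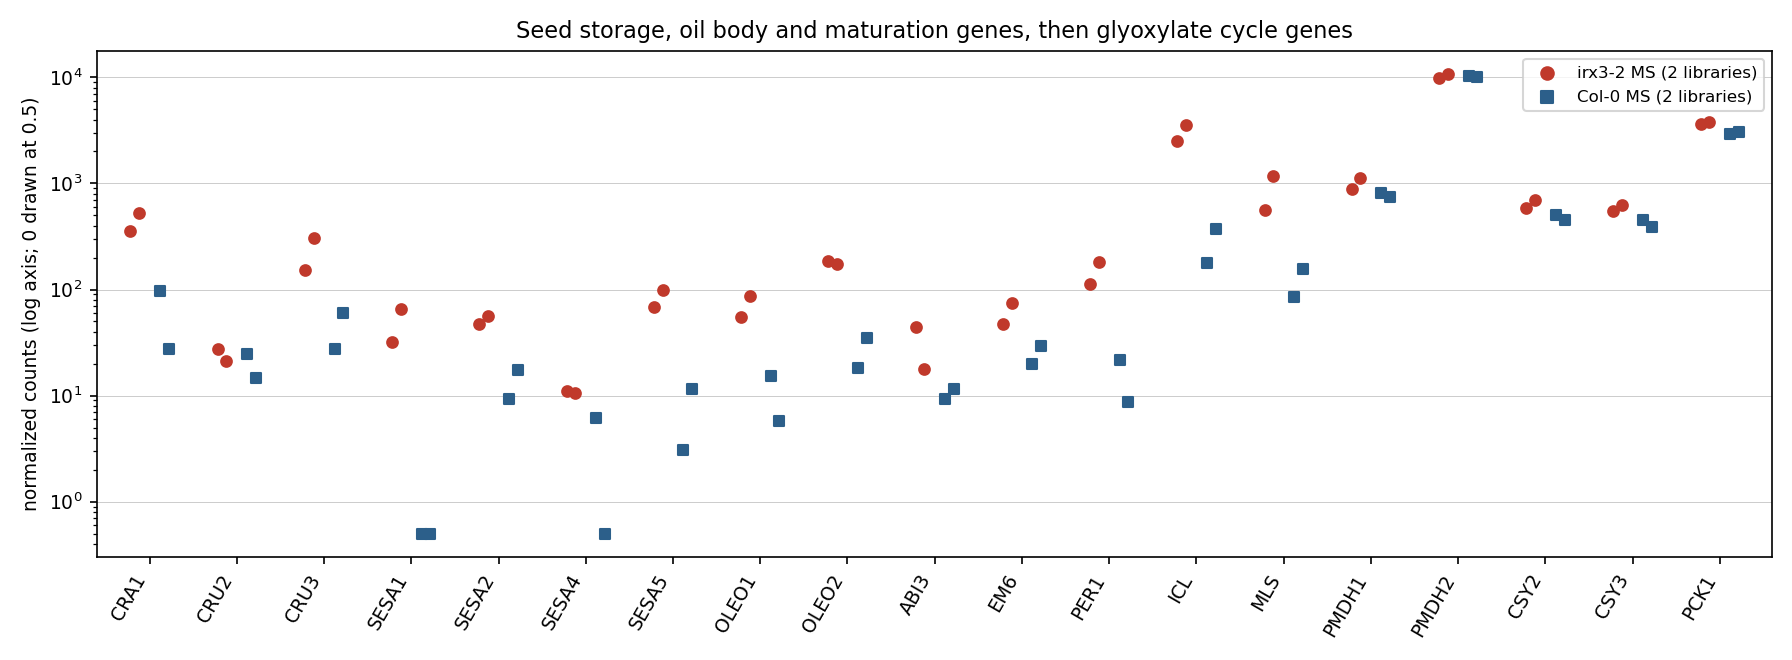
Normalized counts on a log axis (0 drawn at 0.5) of the 12 tested seed genes and of 7 genes of the glyoxylate cycle and gluconeogenesis, with the 2 irx3-2 libraries as red circles and the 2 Col-0 libraries as blue squares. Wide gaps show at SESA1 (31.7 and 65.5 in irx3-2, 0 in both Col-0 libraries) and ICL (2499 and 3564 against 176 and 372). PMDH2 and CRU2 overlap.

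CYP79F1 and MAM1, both of aliphatic glucosinolate synthesis, fell in irx3-2. Of 11 tested genes of the aliphatic pathway MAM1 and CYP79F1 fell, none rose and the median was −0.47. All 11 were below 0, and 8 had groups that did not overlap. This list too was chosen with earlier results of these data known, so its counts and median are a description. CYP79F1 (AT1G16410), the cytochrome P450 that starts the core structure from chain-elongated methionine, had 95.0 and 191 normalized counts in irx3-2, against 564 and 668 in Col-0, 4.53-fold lower (log2 −2.18 ± 0.36, adjusted p = 0.0432). MAM1 (AT5G23010), which elongates the methionine chain, had 347 and 444 in irx3-2, against 1013 and 1356 in Col-0, 2.98-fold lower (−1.58 ± 0.22, adjusted p = 0.0181). For both genes the higher mutant library was below the lower wild-type library. CYP79F1 and MAM1 each lie beside a close copy, CYP79F2 (−1.05, adjusted p = 0.273) and MAM3 (−0.32, adjusted p = 0.559), and how reads that match both were counted is not given in the sources used here. CYP83A1, the next P450 of the pathway, had 527 and 754 in irx3-2, against 1180 and 1193 in Col-0 (−0.91, adjusted p = 0.0866). The pathway's regulator MYB28 had 613 and 405 in irx3-2, against 513 and 556 in Col-0, so its groups overlapped (−0.10, adjusted p = 0.853). None of 10 genes of indole glucosinolates and camalexin passed the test, and 6 of the 10 were above 0 (median 0.23, and 0.10 without irx3-2 replicate 2).

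The myrosinase gene TGG2 and the beta-glucosidase genes BGLU18, BGLU19 and BGLU4 rose, while most listed myrosinase and ER body genes did not pass the test. TGG2 (AT5G25980), a myrosinase, had 1870 and 2037 normalized counts in irx3-2, against 495 and 598 in Col-0, a 3.58-fold rise with the lowest adjusted p of all genes (log2 1.84 ± 0.12, adjusted p = 0.000276). TGG1, the other myrosinase of leaves, had 19765 and 21988 in irx3-2, against 17686 and 18110 in Col-0 (0.22, adjusted p = 0.366). TGG2 thus differed far beyond the spread of either pair, and TGG1 did not pass the test. BGLU18, a beta-glucosidase of ER bodies, which are endoplasmic reticulum structures that store such enzymes, had 1773 and 1681 in irx3-2, against 700 and 861 in Col-0 (1.15 ± 0.13, adjusted p = 0.00616). BGLU19, of the same family and covered to 14.5% by another gene, had 173 and 214 in irx3-2, against 15.3 and 40.7 in Col-0 (2.89 ± 0.44, adjusted p = 0.0309). In a list of 11 tested myrosinase and ER body genes, drawn up after values had been seen, these 3 rose and none fell. The median was 0.22 (0.14 without irx3-2 replicate 2), 7 of the 11 were above 0 and 4 below, and of those whose groups did not overlap 5 were higher and 3 lower. BGLU23, the main ER body glucosidase of seedlings, had 33442 and 37778 in irx3-2, against 37304 and 33418 in Col-0, and its groups overlapped (0.01). BGLU4, outside that list, had 13.8 and 24.8 in irx3-2, against 0 and 0 in Col-0, and was at least 8.60-fold higher (adjusted p = 0.0132).

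**Figure D3:**
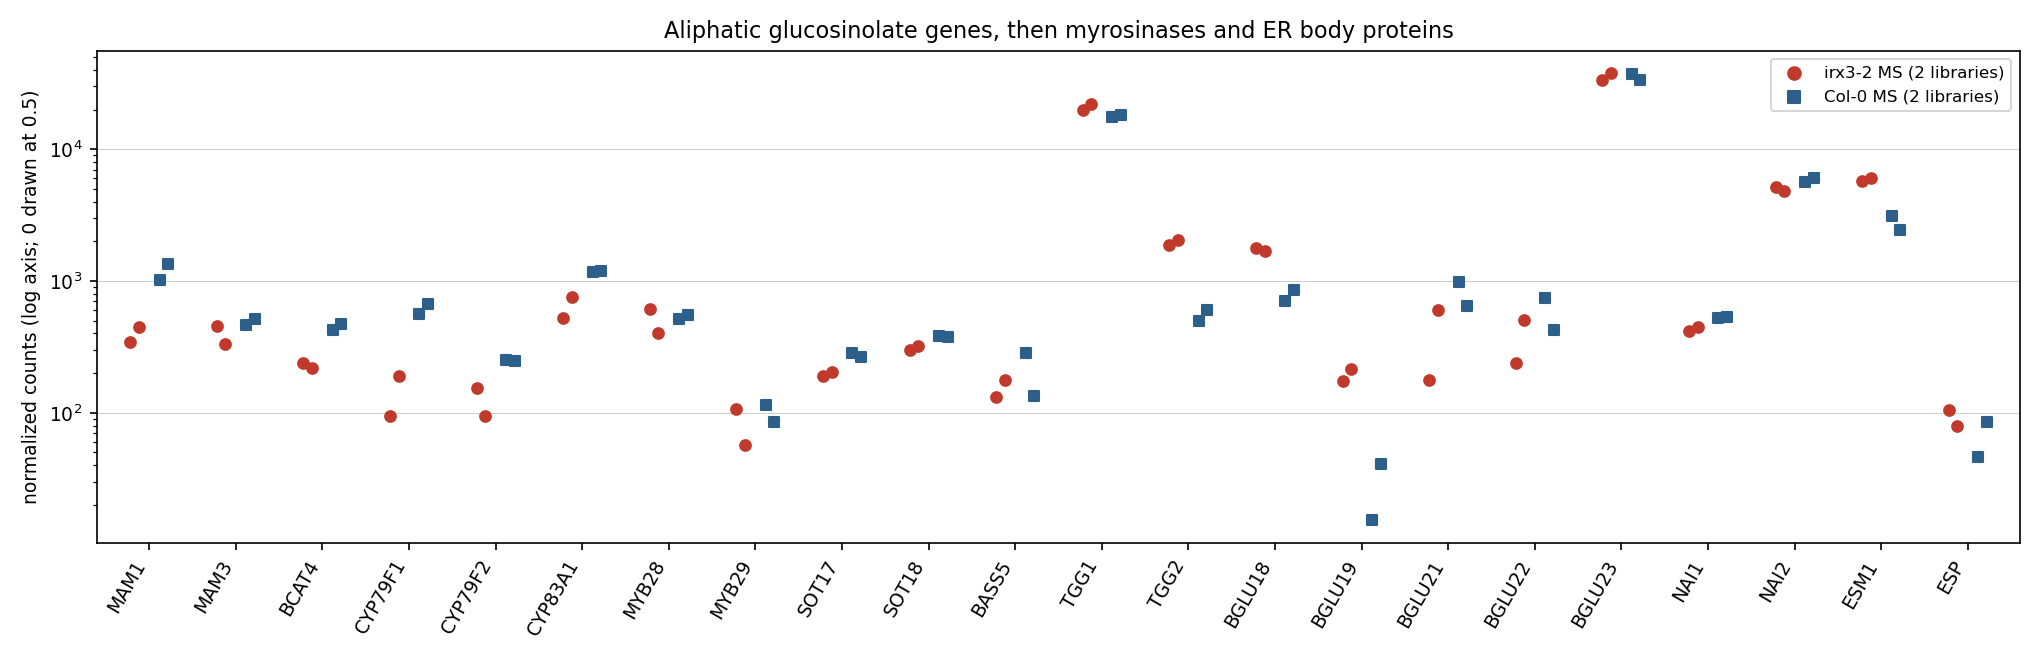
Normalized counts on a log axis of the 11 tested aliphatic glucosinolate genes (left) and of 11 myrosinase and ER body genes (right), with the 2 irx3-2 libraries as red circles and the 2 Col-0 libraries as blue squares. CYP79F1 and MAM1 are lower in both irx3-2 libraries, TGG2, BGLU18 and BGLU19 are higher, and TGG1, NAI2 and BGLU23 lie close to Col-0.

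Of the listed nuclear photosynthesis genes, LHCB2.2 alone rose. Among 20 tested light-harvesting antenna genes LHCB2.2 rose, none fell, 17 had higher groups that did not overlap and the median was 0.39. LHCB2.2 (AT2G05070), an antenna protein of photosystem II, had 16574 and 19574 normalized counts in irx3-2, against 11405 and 10773 in Col-0 (log2 0.70 ± 0.11, adjusted p = 0.0284). Its near-identical copy LHCB2.1 was at 0.59 (adjusted p = 0.138), and these copies cannot be told apart where reads match both. LHCB3 was at 0.56 (adjusted p = 0.0748) and LHCB1.2 at 0.44 (adjusted p = 0.169). None of 32 nuclear genes of photosystem and electron transport passed the test, with a median of 0.26 and 20 of 32 not overlapping and higher. That median was 0.14 without irx3-2 replicate 2 and 0.41 without irx3-2 replicate 1. Replicate 2 was the higher mutant library for both lists: antenna genes summed to 769370 and 920100 in irx3-2, against 644838 and 624638 in Col-0. Without irx3-2 replicate 2 LHCB2.2 had an adjusted p of 0.0599 and the antenna median was 0.27. The Calvin-Benson cycle (19 genes, 0.03), tetrapyrrole synthesis (25 genes, −0.00), nuclear genes of plastid ribosomal proteins (20 genes, −0.02), greening regulators (13 genes, −0.16) and plastid-encoded protein genes (86 genes, −0.01) had no member called. The parts of the plastid-encoded list differed in median: 0.09 for 41 photosynthesis genes, −0.51 for 4 polymerase genes and −0.11 for the other 41. All 4 polymerase genes were below 0, and 3 of the 4 had groups that did not overlap.

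A few mitochondrial RNAs fell in irx3-2. RRN26 (ATMG00020), the large ribosomal RNA of mitochondria, had 12103 and 13155 normalized counts in irx3-2, against 31053 and 31755 in Col-0, 2.49-fold lower (log2 −1.32 ± 0.11, adjusted p = 0.00106). RRN18 (ATMG01390), the small ribosomal RNA, had 5069 and 5138 in irx3-2, against 10784 and 19770 in Col-0 (−1.52 ± 0.22, adjusted p = 0.0199). ORF107A (ATMG00030), an open reading frame of unassigned role, had 1465 and 595 in irx3-2, against 7254 and 9225 in Col-0 (−3.13 ± 0.37, adjusted p = 0.00790). The groups lay far apart for RRN26 and ORF107A, while the wild-type libraries of RRN18 differed more from each other. Of the 77 tested mitochondrion-encoded genes these 3 fell, none rose, 62 were below 0 and the median was −0.19. Annotated ribosomal RNA genes together took 0.191% and 0.0712% of the reads in irx3-2 and 0.173% and 2.81% in Col-0, and the part of such differences between libraries in these falls was not tested. A copy of the mitochondrial genome lies in chromosome 2 of Col-0, and reads that match both places could have been counted in either.

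DIN10 (AT5G20250) and SIP2 (AT3G57520), both of the raffinose synthase family, fell. DIN10 had 3902 and 4136 normalized counts in irx3-2, against 6769 and 7859 in Col-0 (log2 −0.86 ± 0.10, adjusted p = 0.00933). SIP2 had 2094 and 2318 in irx3-2, against 3236 and 3355 in Col-0 (−0.58 ± 0.09, adjusted p = 0.0336). For both genes the higher mutant library was below the lower wild-type library. ERD5, the proline dehydrogenase gene, fell by 0.81 (adjusted p = 0.0369), MIOX2, an inositol oxygenase gene, by 0.95 (adjusted p = 0.0113) and THI2.2, a thionin gene, by 0.73 (adjusted p = 0.0477). In the list of 7 sugar starvation and dormancy markers DIN10 fell and SEN1 rose by 0.98 (adjusted p = 0.00937), and the list median was 0.01. All 15 tested genes of nitrogen, sulfate and phosphate uptake and assimilation were below 0, with a median of −0.46 and none called, and for 10 of the 15 the groups did not overlap. The sulfate transporter gene SULTR1;2 had 587 and 552 in irx3-2, against 869 and 794 in Col-0 (−0.54, adjusted p = 0.138).

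No gene passed the test in the lists of flavonoid and anthocyanin (18 genes, median 0.12), jasmonate (19 genes, 0.18), salicylate (9 genes, 0.09), abscisic acid, cold and dehydration (18 genes, 0.25), iron (20 genes, −0.04), hypoxia (9 genes, 0.43), heat shock (6 genes, −0.31), peroxide scavenging (10 genes, −0.03), auxin (9 genes, −0.03), cell division (9 genes, 0.11) or clock genes (11 genes, −0.09). Without irx3-2 replicate 2 the hypoxia, heat shock and abscisic acid medians were 0.16, −0.09 and 0.47, and without irx3-2 replicate 1 the abscisic acid median was 0.10. Phloem markers (4 genes, 0.20), stomatal and trichome markers (7 genes, 0.07) and reference genes (9 genes, 0.12) had none called either. Of the 458 tested genes of the 33 lists 10 passed the test, so 35 of the 45 called genes were in none of them.

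**Figure D4:**
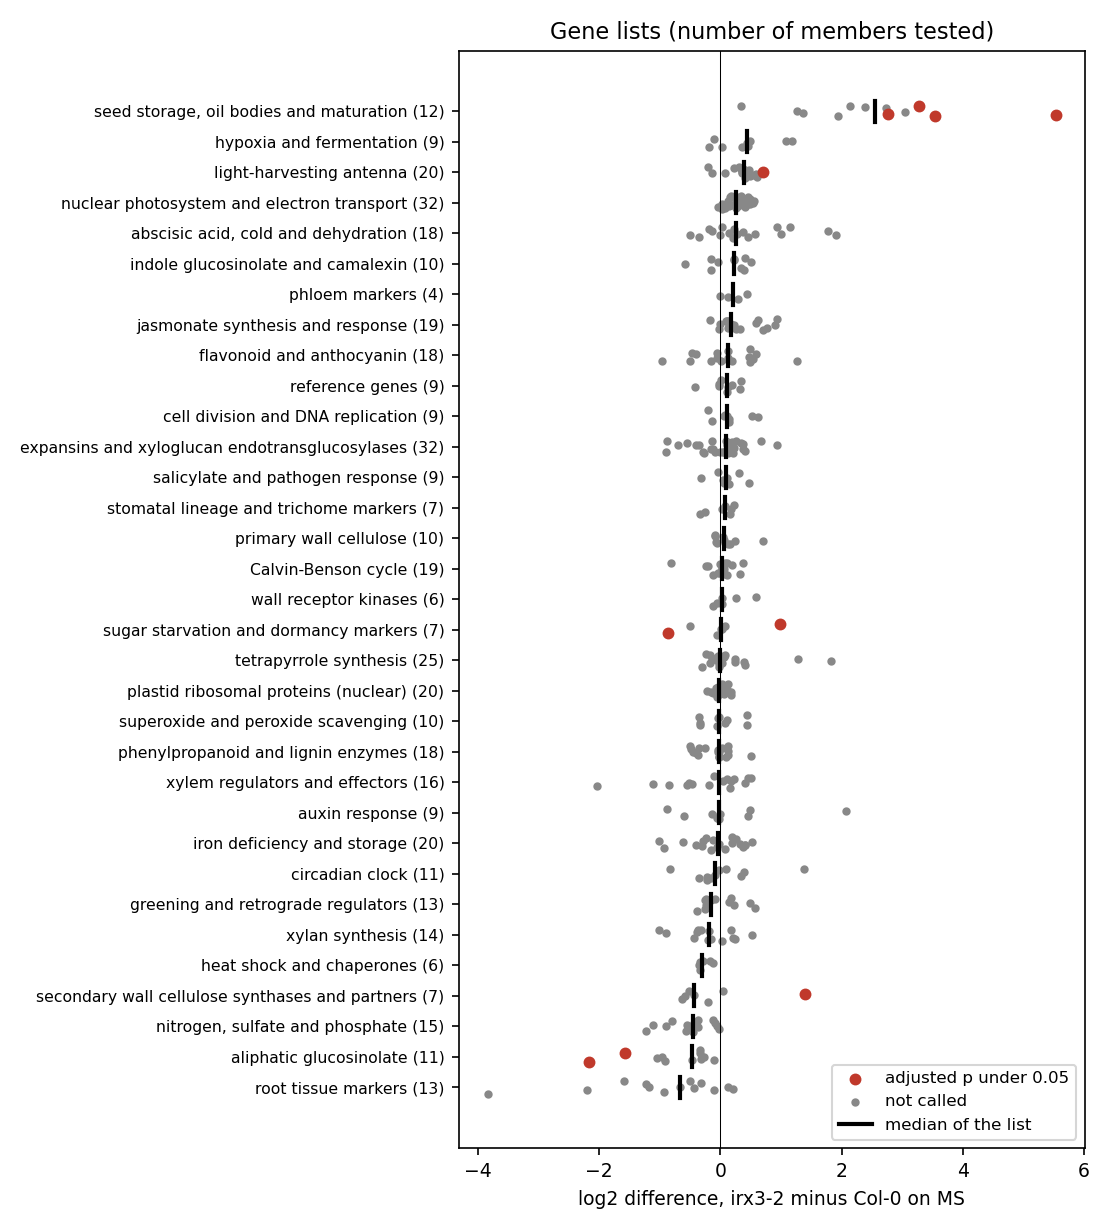
Log2 differences, irx3-2 minus Col-0 on MS, of the tested members of the 33 gene lists, with genes past the test in red and the median of each list as a black bar. Seed storage genes have the highest median (2.56) and root markers the lowest (−0.67), with no root marker called.

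The cysteine protease genes CP1 and AT1G29090 rose, as did NAC036, LBD40, ESE3, LCR67 and AT5G46260. CP1 (AT4G36880), a cysteine protease, had 1191 and 1189 normalized counts in irx3-2, against 303 and 266 in Col-0 (log2 2.06 ± 0.21, adjusted p = 0.00456). AT1G29090, of the same enzyme class, had 585 and 423 in irx3-2, against 155 and 135 in Col-0 (1.77 ± 0.23, adjusted p = 0.0113). The groups did not overlap for either gene, and the CP1 values were nearly equal within irx3-2. The transcription factor gene NAC036 had 33.0 and 35.4 in irx3-2, against 0 and 0 in Col-0, at least 15.3-fold higher (adjusted p = 0.000519). LBD40, a LOB-domain regulator, had 16.5 and 23.0 in irx3-2, against 0 and 0 in Col-0, at least 8.82-fold higher (adjusted p = 0.0169). ESE3, an ERF-family regulator, had 71.6 and 92.0 in irx3-2, against 29.1 and 17.5 in Col-0 (1.80, adjusted p = 0.0369). NAC036 and LBD40, which were at 0 in both Col-0 libraries on MS, rest on few reads. LCR67, a defensin-like protein, had 93.6 and 299 in irx3-2, against 6.13 and 2.91 in Col-0 (5.00 ± 0.53, adjusted p = 0.00473). AT5G46260, an immune receptor of the TIR-NBS-LRR class, had 88.1 and 126 in irx3-2, against 6.13 and 14.5 in Col-0 (3.34 ± 0.52, adjusted p = 0.0316). Both stood far above the wild type in either mutant library, and the LCR67 values of irx3-2 differed widely between its libraries.

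The other rises were FUM2, the cytosolic fumarase gene (1.42), LTP2, a lipid transfer protein gene (1.36), AT2G32870, of a TRAF-like protein (1.93), AT4G17470 (1.41), AT4G30650 (1.14) and the lectin gene AT1G52000 (1.04), with adjusted p between 0.00937 and 0.0325. These 6 and LBD40, NAC036, BGLU4 and SADHU3-2 were named after their values were seen. The remaining falls were transposable element genes. The copia-like element AT5G35935 had 11.0 and 14.2 normalized counts in irx3-2, against 126 and 97.5 in Col-0, 8.27-fold lower (log2 −3.05 ± 0.36, adjusted p = 0.00790). SADHU3-2, of a family of short retroelements, had 5.51 and 3.54 in irx3-2, against 46.0 and 53.8 in Col-0 (−3.22 ± 0.48, adjusted p = 0.0251). For both elements either mutant library lay far below either wild-type library.

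By chromosome, 14 of the 45 called genes lay on chromosome 5, which carries CESA7, that is 14 of 4504 tested genes there (0.311%). The share was 0.178% on chromosome 1, 0.235% on chromosome 2, 0.157% on chromosome 3 and 0.203% on chromosome 4. DIN10 and MAM1 start 1.1 and 1.97 Mb from CESA7 and ESE3 and TGG2 2.97 and 3.34 Mb from it. The background line of the mutant is not given in the labels, and a part of linked sequence differences in these values was not tested.

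The same comparison on lincomycin used other libraries for its group means but the same estimate of spread for each gene. Calls on both media are thus not independent. Of the 45 genes, 36 differed in the same direction on lincomycin (26 of the 32 that rose and 10 of the 13 that fell). On lincomycin 1169 of the 19522 genes passed the test (5.99%). Of the 45, 24 passed it there in the same direction, 53.3% of the calls on MS and 2.05% of those on lincomycin, and 2 passed it in the opposite direction, BGLU18 and RRN26. The median of the 32 genes that rose was 2.23 on MS and 1.03 on lincomycin, and that of the 13 that fell was −1.32 on MS and −0.67 on lincomycin. The genes were chosen for their difference on MS, so the medians on MS are a description only, and the first is the same with the 4 genes at 0 in Col-0 set to their lower bounds.

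ICL had 40746 and 42398 normalized counts in irx3-2 on lincomycin, against 7902 and 9032 in Col-0 on lincomycin (log2 2.3, adjusted p = 0.00149). MLS had 8633 and 6725 in irx3-2, against 614 and 789 in Col-0 there (3.45, adjusted p = 0.000394). Levels of both were higher on lincomycin than on MS in either genotype, and the mutant stood above the wild type on both media. Of the seed list 8 of 12 rose on lincomycin (median 3.12), and of the aliphatic glucosinolate list 7 of 11 fell (median −0.98). CYP79F1 had 1.42 and 2.61 in irx3-2, against 56.5 and 55.9 in Col-0 on lincomycin (−4.27, adjusted p = 0.000177).

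The interaction, which is the irx3-2 minus Col-0 difference on lincomycin minus that on MS, passed the test for 137 of the 19522 genes (0.702%) and for 9 of the 45. It contains the MS difference for which the 45 were chosen, so their count and the signs of their interactions are a description only. NAC036 was the widest of the 9. On lincomycin it had 72.4 and 55.5 normalized counts in irx3-2, against 153 and 158 in Col-0. The order of the genotypes was thus the opposite of that on MS (interaction −6.42 ± 0.57, adjusted p = 0.000900). RRN26 had 8943 and 8497 in irx3-2, against 1629 and 2003 in Col-0 on lincomycin (interaction 3.59 ± 0.16, adjusted p = 4.95e-06). BGLU18 had 209 and 201 in irx3-2, against 367 and 340 in Col-0 on lincomycin (interaction −1.93 ± 0.18, adjusted p = 0.00117). For CESA7 the interaction was −0.72 ± 0.22 (adjusted p = 0.189), so a difference between media was not shown for it.

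**Figure D5:**
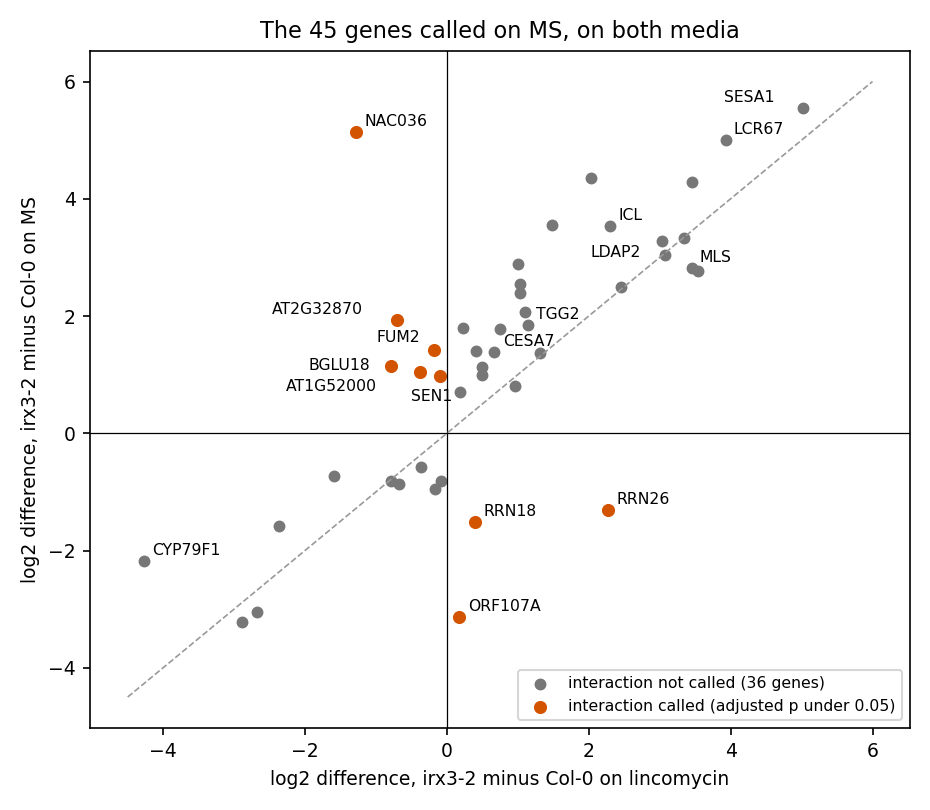
Log2 differences, irx3-2 minus Col-0, of the 45 called genes, with lincomycin on the x axis and MS on the y axis; the dashed line marks equal values and orange points the 9 genes with an adjusted p under 0.05 for the interaction. Most points lie in the quadrants of equal sign, and NAC036 (5.14 on MS and −1.28 on lincomycin) and RRN26 (−1.32 on MS and 2.27 on lincomycin) stand apart.

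The count of calls rested on few libraries and on a spread shared with the lincomycin libraries. In fits without 1 library it ran from 18 to 973, with the highest value, 235 higher and 738 lower, without irx3-2 replicate 1, where the lone irx3-2 library is assumed to vary like the other groups. That fit called all 45, and without irx3-2 replicate 2, with 62 calls, 29 of the 45 were called. A total of 11 genes passed the test in all 8 such fits: CESA7, ICL, MLS, LCR67, NAC036, GH9B15, CP1, TGG2, BGLU18, RRN26 and AT5G35935. Fewer such fits called the seed genes (SESA1 in 3 of the 8, and SESA5, OLEO2 and PER1 in 2 each), MAM1 (5), CYP79F1 (2) and LHCB2.2 (1), with adjusted p of up to 0.130 for the seed genes, 0.126 for MAM1, 0.229 for CYP79F1 and 0.165 for LHCB2.2. On the recovered reads edgeR did not call LBD40, BGLU4 and THI2.2 (adjusted p = 0.0579, 0.0756 and 0.0545). SESA1, NAC036, LCR67, LBD40 and BGLU4 passed the filter on counts through irx3-2 alone, so they had to differ to be tested. A fit of the 4 MS libraries alone called 7 genes, ICL, GH9B15, CP1, CESA7, TGG2, RRN26 and ORF107A. The authors' deposited table, with its own DESeq2 test, called 148 of the 18476 genes that have an adjusted p there (0.801%), among them all 45, with CESA7 at a deposited log2 fold change of 1.36 ± 0.21 and ICL at 3.16 ± 0.38.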

How the data were processed

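Total RNA of 8 seedling libraries, 2 in each of 4 groups, was sequenced after Illumina library preparation, and the labels gave the groups and the replicate numbers. The submitters' processing notes name Trimmomatic, FastQC and TopHat2 2.1.1 among the tools, then featureCounts, DESeq2 and the TAIR10 build. The annotation version, strand setting and handling of reads that match several places are not given in the sources used here. Per the file headers, the authors deposited normalized counts, which are a signal divided by the size factor of each library, log2 fold changes with standard errors, a Wald score, and DESeq2's raw and adjusted p-values. The deposited table of irx3-2 against Col-0 on MS was used. All values were whole multiples of 1 number per library to within 0.01 reads (100% of values), so whole reads were recovered: 15032240 to 19488440 per library. Floors (3 reads over a group) cover counting error only. The ± values beside the limma log2 differences are standard errors from the spread between libraries, estimated over all 8 libraries.

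The test was limma 3.58.1 (R 4.3.3) with a mean-variance trend on log2 of the normalized count plus a pseudocount of 1, over the 19522 genes that reached 10 normalized counts in 2 or more of the 4 MS libraries. All 8 libraries were fitted with 4 group means (4 residual degrees of freedom), with Benjamini-Hochberg adjustment over all tested genes and a threshold of 0.05. The script was tested on simulated data. Genes named by rule were CESA7 and, among called genes with a mean of at least 50 normalized counts and groups that do not overlap, up to 15 per direction with the largest differences. Other scalings, pseudocounts and filters, the replicate block, fits without 1 library, edgeR 4.0.16 and DESeq2 1.42.0 on the recovered reads were alternatives. The members and lists were chosen with earlier results of these data known, and 3 of the lists after these values were seen. Positions, overlaps and upstream sequences came from RefSeq (TAIR10.1), which holds 36620 of the 36917 loci. Of 506 list entries 505 matched the gene names in the tables.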

Additional observations from a re-analysis of the deposited data

Results flagged for a closer look

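For 9 of the 45 genes the difference between the genotypes was not the same on the 2 media by the test of the interaction (irx3-2 minus Col-0 on lincomycin, minus the same on MS; limma, adjusted over all genes tested). The 6 that had risen on MS had negative interactions: NAC036 −6.42 ± 0.57 SE (adjusted p = 0.000900), AT2G32870 −2.64 ± 0.43 (0.0212), BGLU18 −1.93 ± 0.18 (0.00117), FUM2 −1.60 ± 0.28 (0.0301), AT1G52000 −1.42 ± 0.23 (0.0197) and SEN1 −1.08 ± 0.17 (0.0193). On lincomycin itself BGLU18 was lower in irx3-2 (adjusted p = 0.00645), and the other 5 were at −1.28 to −0.10 without passing the test. The 3 that had fallen on MS, all mitochondrion-encoded, had positive interactions: RRN26 3.59 ± 0.16 (adjusted p = 4.95e-06), ORF107A 3.31 ± 0.52 (0.0193) and RRN18 1.91 ± 0.31 (0.0200). RRN26 was higher in irx3-2 on lincomycin (2.27, adjusted p = 3.42e-06). The genes were chosen for their difference on MS, and a cause was not tested.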

How the results depend on the processing

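CESA7 kept its call in all 20 alternatives, with a log2 difference of 1.35 to 1.42 and an adjusted p of 1.10e-08 to 0.0454. The count of 45 genes was 39 to 51 under other scalings, pseudocounts and filters, and 59 with edgeR (42 shared). It was 7 with the 4 MS libraries only, 142 with DESeq2 and 148 by the authors' deposited adjusted p, both holding all 45, and 18 to 973 without 1 library. The 35 genes changed at least 2-fold were 7, 71, 66 and 16 to 413 under the same alternatives. Genotypes on MS share only replicate number 2, and the deviations of these 2 libraries from their group means correlated with r = 0.17. Over all same-numbered libraries of different groups the correlations were −0.13 to 0.17. With 2 libraries a group the deviations within a group mirror each other, so these values cannot decide whether same-numbered libraries shared a batch, which was not tested. With the replicate block 20 genes were called, all at least 2-fold, and 19 of them were among the 45. Over the other 44 called genes and the alternatives, 639 of 875 values kept their direction and their call, 236 kept their direction without a call, and none reversed. The plastid share was higher in irx3-2 by 2.07 percentage points, by 1.3 without ribosomal RNA genes, where the groups overlapped, and by 0.637 to 3.5 without 1 library. With 2 libraries a group, changes in genes of few reads, such as NAC036, LBD40 and BGLU4, rest on small counts, and a gene that missed the threshold is not shown to be equal.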
